A study of Mus musculus with 9 samples.

Results

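The insulin-like growth factor (IGF) system was described in ribosome footprints of mouse fat cell precursors before and during beige adipocyte differentiation. It was taken as the 9 genes Igf1, Igf1r, Igf2r, Igfbp2, Igfbp3, Igfbp4, Igfbp5, Igfbp6 and Igfbp7, found by symbol among 55359 genes of the count table. All 9 were among the 14714 genes that passed the filter on low counts and were tested. Precursors came from mouse inguinal white adipose tissue, the subcutaneous fat of the groin, and were cultured. The day 0 group received no treatment. The day 4 and day 8 groups were kept for that time in a beige differentiation regime. It began with a 2-day induction in dexamethasone, 3-isobutyl-1-methylxanthine, indomethacin, insulin, 3,3′,5-triiodo-L-thyronine and rosiglitazone, and went on in a maintenance medium that lacked the first 3 of these agents. Insulin was at 5 μg/mL in the induction medium. Each group had 3 libraries. Strain, sex and age of the mice, pooling of animals and the medium of the day 0 cells are not stated in the labels.

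IGF1 is a secreted hormone that acts on the receptor tyrosine kinase IGF1R, a close relative of the insulin receptor, and insulin at high concentration can also bind IGF1R. IGF2R carries no kinase: it sorts lysosomal enzymes that bear mannose 6-phosphate and takes up IGF2 for breakdown. IGF-binding proteins are secreted carriers that hold IGFs away from the receptor, prolong their life or place them in the matrix, and proteases release the ligand by cutting them. In fat precursors IGF signals are known to favour proliferation and entry into differentiation, and mature fat cells are known to rely mainly on the insulin receptor.

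Levels are given as CPM, counts scaled to the size of each library, after TMM scaling, which corrects for library composition. Fold changes are fitted log2 values with their standard error (SE) from the quasi-likelihood test of edgeR, and a gene was called at an adjusted p under 0.05 over all 14714 genes. CPM is not divided by gene length, so a level is compared between stages and not between genes. Libraries held 30823028 to 38994892 counts. On the first principal component of log2 CPM, which held 75.9% of the variance, day 0 lay at -127 to -124, day 4 at 64.8 and 65.4 with replicate 2 at 12.8, and day 8 at 85.5 and 85.8 with replicate 3 at 62.1. Day 4 replicate 2 lay on the day 0 side of the other day 4 libraries for 7 of the 9 genes, and day 8 replicate 3 did so within day 8 for 8 of the 9. For the 9 genes, results that turn on either library are given with and without it. For other genes such values were kept only for results called with all 9 libraries.

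Summed levels of 12 adipocyte markers stood at 1355 to 1902 CPM at day 0, 45391 to 68003 CPM at day 4 and 62240 to 64674 CPM at day 8, and those of 12 precursor and fibroblast markers at 74886 to 89008, 29415 to 42210 and 9033 to 22075 CPM. Most of the precursor sum was the collagen genes Col1a1 and Col3a1. They held 47590 and 24021 CPM of 74886 in day 0 replicate 1, and 5217 and 3085 CPM of 9033 in day 8 replicate 1. Of the tested markers all 11 adipocyte genes were called higher on both later days, while of the 12 precursor genes 6 were called lower and 3 higher (Dlk1, Ly6a and Cd34) at day 4, and 8 lower and none higher at day 8. Markers of other cell types were present at lower levels, except that those of smooth muscle and pericytes exceeded the adipocyte sum at day 0. The 14 macrophage markers summed to 73.6 to 148 CPM at day 0, 76.2 to 106 CPM at day 4 and 20.3 to 63.0 CPM at day 8. The 10 endothelial markers summed to 21.5 to 29.8, 7.08 to 21.8 and 5.11 to 9.88 CPM, with 21.8 CPM in day 4 replicate 2. Smooth muscle and pericyte markers, which contractile fibroblasts share, summed to 3929 to 5926, 204 to 497 and 308 to 507 CPM. The 6 mesothelial markers summed to 28.3 to 88.4 CPM over all libraries, the 5 Schwann cell markers to 4.15 to 11.6 CPM and the 7 T, B and mast cell markers to 8.95 to 12.0 CPM. The macrophage markers Cd163 and Itgam and the endothelial markers Vwf, Cldn5 and Tie1 had 20 to 31 counts each over all 9 libraries, and no marker of these lists was at 0 in all of them. In cultures of mixed cells, fewer cells of a type and fewer footprints per cell cannot be told apart, and the part of these cell types in the results was not tested.

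By day 4, 6 of the 9 genes had fallen and 2, Igfbp3 and Igfbp6, had risen, while Igfbp2 did not pass the test. Of all tested genes 58.2% were called in that comparison, 28.4% lower and 29.8% higher. By day 8, 7 of the 9 were below day 0 and none was called above it, against 67.7% of all tested genes called, 33.5% lower and 34.2% higher. Between day 4 and day 8, 1 gene rose (Igf1) and 2 fell (Igfbp3 and Igfbp6), against 31.8% of all tested genes called, 14.7% higher and 17.1% lower. With scaling by library totals, the share of higher genes among all called genes in this last comparison was 65.9% in place of 46.2%. The median log2 fold change of the 9 genes was -1.20, -1.26 and -0.52 in these comparisons, beside -0.018, -0.0057 and -0.022 over all tested genes. Both comparisons against day 0 share the same day 0 libraries, so their falls are not independent of each other.

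**Figure D1:**
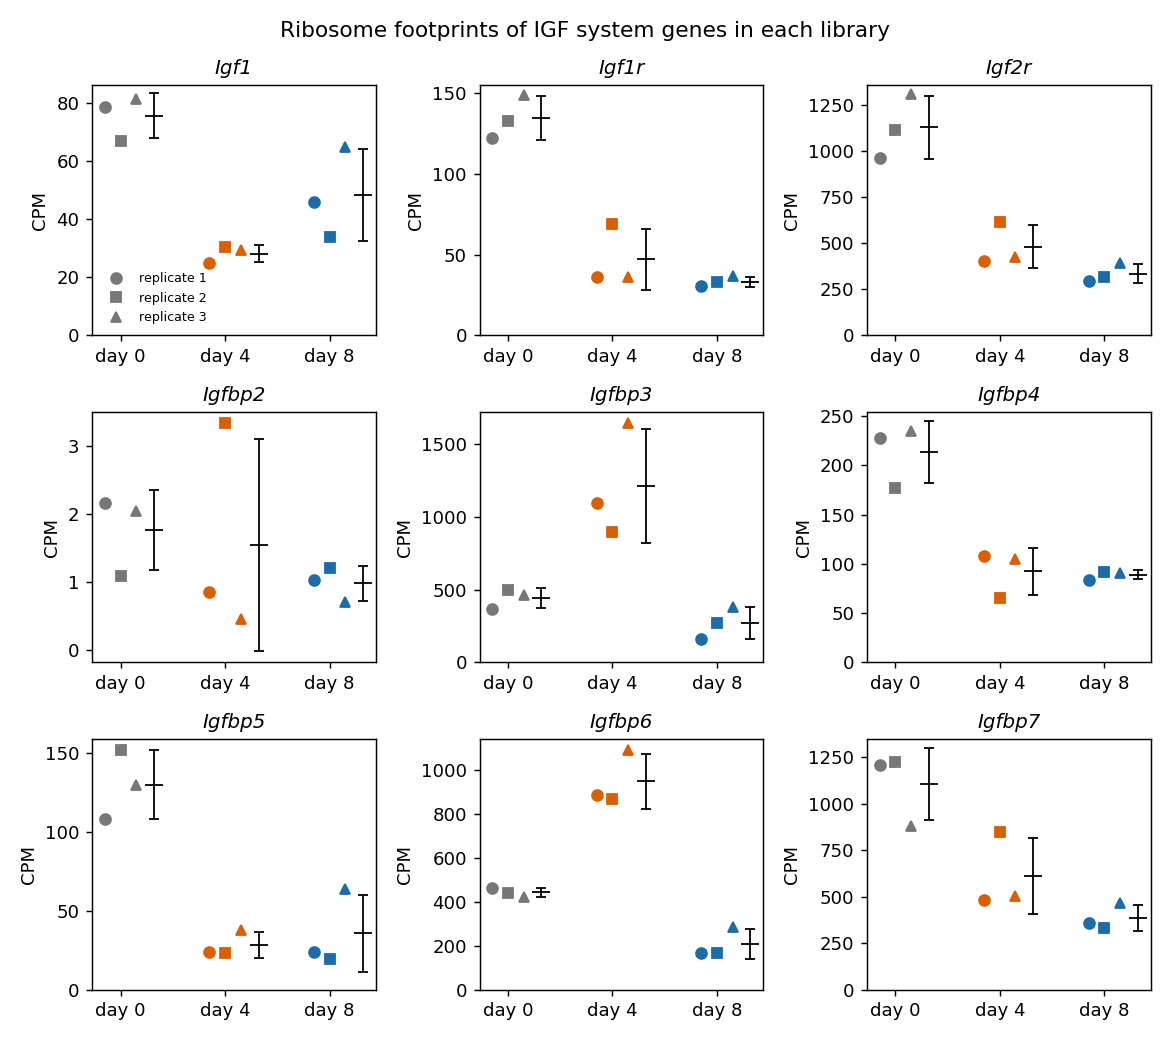
Footprint level (CPM, y axis, linear and starting at or just below 0) of each of the 9 genes by day (x axis), with 1 symbol per replicate number and the mean ± SD (n = 3) in black. Igfbp3 and Igfbp6 are highest at day 4, Igf1 is lowest at day 4, and Igf1r, Igf2r, Igfbp4, Igfbp5 and Igfbp7 are lower on both later days than at day 0.

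The ligand gene Igf1 (ENSMUSG00000020053) dipped at day 4 and came back part of the way by day 8. Its level was 78.5, 66.8 and 81.2 CPM in the day 0 libraries, 24.7, 30.2 and 29.3 CPM at day 4, and 45.9, 33.7 and 64.9 CPM at day 8. All day 4 libraries lay below all others, and day 8 lay between, with replicate 3 near the day 0 range and replicate 2 near day 4. Igf1 fell 2.69-fold by day 4, from 75.5 ± 7.63 to 28.1 ± 2.95 CPM (SD, n = 3; a fitted log2 change of -1.43 ± 0.21 SE, adjusted p = 0.000279 by edgeR). From day 4 to day 8 it rose 1.72-fold to 48.1 ± 15.7 CPM (SD, n = 3; 0.78 ± 0.21, adjusted p = 0.0191 by edgeR), where it remained 1.57-fold below day 0 (-0.65 ± 0.21, adjusted p = 0.0177). The later steps were less firm. Without day 8 replicate 3, which stood apart, the rise from day 4 to day 8 was 0.50 on the log2 scale (adjusted p = 0.0436) and the difference of day 8 from day 0 was -0.91 (adjusted p = 0.00113). Leaving out day 4 replicate 1 ended the call of the rise from day 4 to day 8 (0.70, adjusted p = 0.0511). The call of day 8 against day 0 ended on leaving out day 0 replicate 1 (-0.61, adjusted p = 0.0526), day 0 replicate 3 (-0.59, adjusted p = 0.0572), day 8 replicate 1 (-0.60, adjusted p = 0.0595) or day 8 replicate 2 (-0.43, adjusted p = 0.0528). Over all alternatives its adjusted p ran from 0.000106 to 0.0595 for day 8 against day 0 and from 0.00300 to 0.0511 for day 8 against day 4. Macrophages are also known to make IGF1. Their summed markers stood at 73.6 to 148 CPM at day 0, 76.2 to 106 CPM at day 4 and 20.3 to 63.0 CPM at day 8, and their part in the Igf1 values was not tested.

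Footprints of other ligands were few. Igf2, the fetal IGF, had 15 counts over all 9 libraries, 6 of them in day 4 replicate 2, and was too low to test. The insulin genes Ins1 and Ins2 had 0 counts in all libraries. Igfals, which stabilises the serum complex of IGF and IGFBP3, stood at 0.305 ± 0.0263, 0.700 ± 0.201 and 1.54 ± 0.506 CPM (SD, n = 3) at days 0, 4 and 8, with 9 to 12 counts per library at day 0. It rose 5.00-fold by day 8 (adjusted p = 0.000330 by edgeR). Its step to day 4 (1.19, adjusted p = 0.0221) lost its call on leaving out day 0 replicate 1 (adjusted p = 0.0553), day 0 replicate 2 (adjusted p = 0.0648) or day 4 replicate 1 (adjusted p = 0.0850), with a range of 0.0132 to 0.0850 over the alternatives. The step from day 4 to day 8 (1.14, adjusted p = 0.0290) was not called in 6 of 18 alternatives, among them leaving out day 4 replicate 2 or 3 or day 8 replicate 1 or 3, with a range of 0.0156 to 0.120. Igfbp1, the liver-type binding protein whose gene neighbours Igfbp3, had 2 counts in all, and the insulin receptor-related receptor gene Insrr had 1.

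Both IGF receptors fell by day 4 and were low at day 8. Igf1r (ENSMUSG00000005533), which encodes the signalling receptor, had 122, 133 and 149 CPM at day 0, 36.2, 68.8 and 36.1 CPM at day 4, and 30.3, 33.0 and 36.5 CPM at day 8. The day 4 and day 0 libraries did not overlap, and day 4 replicate 2 lay between the rest of its day and day 0. Igf1r fell 2.86-fold by day 4, from 135 ± 13.6 to 47.0 ± 18.9 CPM (SD, n = 3; a fitted log2 change of -1.52 ± 0.23 SE, adjusted p = 0.000374 by edgeR), and was 4.05-fold below day 0 at day 8, at 33.3 ± 3.14 CPM (-2.02 ± 0.24, adjusted p = 4.95e-05). Day 8 and day 4 differed by -0.50 ± 0.23, which did not pass the test (adjusted p = 0.125), and the value was -0.12 without day 4 replicate 2.

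Igf2r (ENSMUSG00000023830), the mannose 6-phosphate and IGF2 receptor, moved like Igf1r. It stood at 966, 1118 and 1310 CPM at day 0, at 403, 614 and 427 CPM at day 4, and at 295, 320 and 393 CPM at day 8. All day 0 libraries were above all later ones, and replicate 2 was again the highest of day 4. The fall was 2.35-fold by day 4 (log2 fold change -1.23 ± 0.20 SE, adjusted p = 0.000487 by edgeR) and 3.37-fold by day 8 (-1.75 ± 0.20, adjusted p = 4.21e-05). From day 4 to day 8 Igf2r changed by -0.52 ± 0.20 (adjusted p = 0.0681), and it was called lower without day 4 replicate 1 (-0.63, adjusted p = 0.0456) and also without day 8 replicate 3 (-0.65, adjusted p = 0.0480). Without day 4 replicate 2, which stood apart, the change was -0.31 (adjusted p = 0.159). Igf2r was called lower in 5 of 18 alternatives for this step and not in 13. Those 5 include DESeq2 (adjusted p = 0.0333) and no filter on low counts (adjusted p = 0.0453 by edgeR). The adjusted p lay between 0.0240 and 0.200 over the alternatives. The RNA gene Airn, which overlaps Igf2r on the other strand, had 2 to 14 counts per library.

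Across the 9 libraries, Igf1r and Igf2r had the most similar profiles of any pair among the 9 genes. After centring each gene on its own mean, their log2 CPM differed by a root mean square of 0.18, against 0.28 for Igf2r and Igfbp7 and 0.30 for Igfbp3 and Igfbp6. The largest distance, 1.54, was between Igfbp3 and Igfbp5. These distances describe 9 shared libraries and say nothing about shared control.

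**Figure D2:**
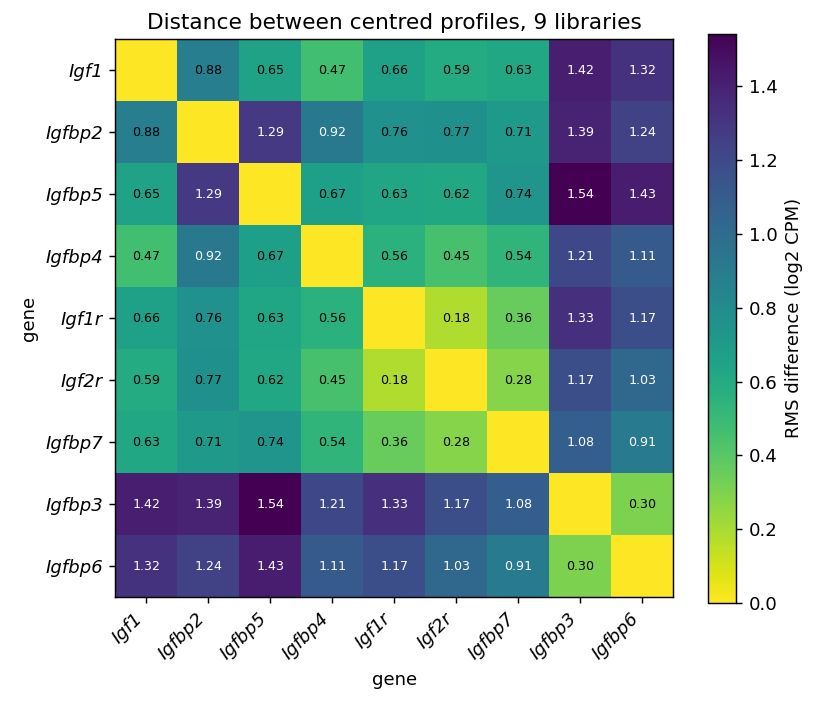
Root mean square difference in log2 CPM between the centred profiles of each pair of the 9 genes over 9 libraries (both axes list genes, colour and printed number give the distance). Igf1r, Igf2r and Igfbp7 form a close set (0.18 to 0.36) and Igfbp3 and Igfbp6 another (0.30).

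The insulin receptor moved the other way. Insr, from the list of other ligands and receptors, stood at 67.2, 67.0 and 68.2 CPM at day 0, at 296, 189 and 254 CPM at day 4, and at 239, 238 and 220 CPM at day 8. All later libraries lay above day 0, and day 4 replicate 2 was the lowest of its day. Insr rose 3.65-fold by day 4 (log2 fold change 1.87 ± 0.15 SE, adjusted p = 6.66e-06 by edgeR) and was 3.44-fold above day 0 at day 8 (1.78 ± 0.15, adjusted p = 7.17e-06). Igf1r and Insr, which pair into hybrid receptors where cells make both, thus changed in opposite directions against day 0 on both days.

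The upstream sequences of the 3 genes with close profiles, Igf1r, Igf2r and Igfbp7, are shown beside that of Igfbp6, which peaked at day 4. They are the 250 bases before the annotated start, from RefSeq on GRCm38.p6, chosen where that start is the outermost of the gene. Windows lie at chr7:67952007-67952256 on the plus strand (Igf1r), chr17:12769707-12769956 on the minus strand (Igf2r), chr5:77408046-77408295 on the minus strand (Igfbp7) and chr15:102143936-102144185 on the plus strand (Igfbp6). Each is written 5′ to 3′ along its gene, and capitals mark matches, on either strand, to any of the 6 motifs searched.

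Igf1r: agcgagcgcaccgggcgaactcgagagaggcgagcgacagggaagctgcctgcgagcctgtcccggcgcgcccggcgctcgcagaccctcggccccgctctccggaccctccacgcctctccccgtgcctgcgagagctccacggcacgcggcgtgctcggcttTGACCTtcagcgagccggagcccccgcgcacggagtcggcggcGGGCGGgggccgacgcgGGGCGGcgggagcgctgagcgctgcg
Igf2r: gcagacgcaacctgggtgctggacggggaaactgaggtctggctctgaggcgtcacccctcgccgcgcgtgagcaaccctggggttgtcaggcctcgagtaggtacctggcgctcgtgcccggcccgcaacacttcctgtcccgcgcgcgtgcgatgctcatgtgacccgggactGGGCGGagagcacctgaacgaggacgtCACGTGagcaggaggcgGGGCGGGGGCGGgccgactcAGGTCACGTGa
Igfbp7: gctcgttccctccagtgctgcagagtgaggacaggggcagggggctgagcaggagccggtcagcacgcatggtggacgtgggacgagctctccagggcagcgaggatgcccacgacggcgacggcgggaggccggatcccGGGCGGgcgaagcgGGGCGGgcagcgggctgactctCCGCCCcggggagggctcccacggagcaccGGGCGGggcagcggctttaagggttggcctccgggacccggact
Igfbp6: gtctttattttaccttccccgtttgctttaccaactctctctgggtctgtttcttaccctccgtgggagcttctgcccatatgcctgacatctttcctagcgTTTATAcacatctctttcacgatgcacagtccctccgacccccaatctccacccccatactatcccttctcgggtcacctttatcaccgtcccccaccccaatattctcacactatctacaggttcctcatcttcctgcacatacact

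The motifs were the TATA box TATAAA, the glucocorticoid receptor half-site AGAACA, the nuclear receptor half-site AGGTCA, the cAMP response element TGACGTCA, the E-box CACGTG and the GC box GGGCGG. They occur in 12.4%, 16.1%, 14.0%, 1.55%, 6.02% and 32.7% of 32851 windows of this length. The GC box was found 2 times in the window of Igf1r, 3 times in that of Igf2r and 4 times in that of Igfbp7, and not in that of Igfbp6, which held 1 TATA match, 148 bases before the start. It was also absent from the windows of Igf1, Igfbp4 and Igfbp5, which fell by day 4, and of Igfbp3, which rose. Igfbp2, which was not called, had 3 in its window at the outermost start and none in its other window. The windows of Igf1, Igfbp3 and Igfbp4 do not lie at the outermost start of the gene. Any link between the GC box and the direction of change was not tested. Igf1, Igf1r and Igf2r each had 1 nuclear receptor half-site, 161, 86 and 11 bases before the start. That of Igf2r overlaps 1 of its 2 E-box matches. All 9 genes had a window in the table, 10 windows in all. A match is a run of letters and not a shown binding site, and a window without one says nothing about the factor.

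Igfbp3 and Igfbp6 rose by day 4 and fell from day 4 to day 8, and Igfbp6 ended below its day 0 level. Igfbp3 (ENSMUSG00000020427), the main IGF carrier of serum, had 364, 495 and 464 CPM at day 0, 1094, 894 and 1644 CPM at day 4, and 163, 269 and 381 CPM at day 8. Day 4 lay above both other days in all libraries, while day 8 replicate 3 lay within the day 0 range. The rise by day 4 was 2.74-fold, from 441 ± 68.6 to 1211 ± 388 CPM (SD, n = 3; a fitted log2 change of 1.46 ± 0.31 SE, adjusted p = 0.00280 by edgeR). It then fell 4.47-fold to 271 ± 109 CPM (SD, n = 3; -2.16 ± 0.32, adjusted p = 0.00144 by edgeR). Day 8 against day 0 gave -0.70 ± 0.31, which did not pass the test (adjusted p = 0.0658). It passed without day 8 replicate 3 (-1.02, adjusted p = 0.0150), and on leaving out day 4 replicate 2 (-0.70, adjusted p = 0.0379) or day 4 replicate 3 (-0.70, adjusted p = 0.0493). Igfbp3 was called lower in 10 of 18 alternatives for this comparison and not in 8. Those 10 include DESeq2 (adjusted p = 0.0419) and limma-voom (adjusted p = 0.0376) on all 9 libraries. The adjusted p ran from 0.00134 to 0.209 over the alternatives.

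The profile of Igfbp6 (ENSMUSG00000023046), a carrier that prefers IGF2, was alike and tighter. Its libraries stood at 463, 440.2 and 421 CPM at day 0, 883, 868 and 1090 CPM at day 4, and 167, 167 and 285 CPM at day 8. No library of one day overlapped another day, and replicate 3 was the highest of day 8. Igfbp6 rose 2.14-fold by day 4, from 442 ± 20.9 to 947 ± 124 CPM (SD, n = 3; a fitted log2 change of 1.10 ± 0.21 SE, adjusted p = 0.00138 by edgeR). It fell 4.59-fold from day 4 to day 8, to 206 ± 68.3 CPM (SD, n = 3; -2.20 ± 0.22, adjusted p = 0.000245 by edgeR), and ended 2.14-fold below day 0 (-1.10 ± 0.21, adjusted p = 0.00106).

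Igfbp4 and Igfbp5, whose products the protease PAPP-A is known to cut, fell by day 4 and were not called between day 4 and day 8. Igfbp4 (ENSMUSG00000017493), mainly an inhibitor of IGF action, had 228, 177 and 235 CPM at day 0, 108, 65.1 and 105 CPM at day 4, and 83.9, 92.2 and 91.1 CPM at day 8. All day 0 libraries were above all others, and day 4 replicate 2 was the lowest library of the series, farther from day 0 than the rest of its day. Igfbp4 fell 2.30-fold by day 4 (log2 fold change -1.20 ± 0.19 SE, adjusted p = 0.000445 by edgeR) and was 2.39-fold below day 0 at day 8 (-1.26 ± 0.19, adjusted p = 0.000245). Day 8 and day 4 differed by -0.056 ± 0.19 (adjusted p = 0.843), a value whose sign turned with scaling by library totals (0.092).

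Igfbp5 (ENSMUSG00000026185), a carrier that binds the extracellular matrix and lies next to Igfbp2, had the largest fall of the 9 genes at day 4. It had 108, 152 and 130 CPM at day 0, 23.6, 23.3 and 38.0 CPM at day 4, and 24.1, 19.1 and 64.0 CPM at day 8. Day 0 was above all later libraries, and within day 8 replicate 3 stood well above the others. The fall by day 4 was 4.59-fold, from 129.9 ± 21.8 to 28.3 ± 8.38 CPM (SD, n = 3; a fitted log2 change of -2.20 ± 0.42 SE, adjusted p = 0.00131 by edgeR). By day 8 it was 3.64-fold, to 35.7 ± 24.6 CPM (SD, n = 3; -1.86 ± 0.41, adjusted p = 0.00251 by edgeR), and -2.57 on the log2 scale without day 8 replicate 3 (adjusted p = 4.15e-05). The change from day 4 to day 8 was 0.34 ± 0.40 (adjusted p = 0.553) with that library and -0.39 without it (adjusted p = 0.248), so its direction rested on 1 library.

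Igfbp7 (ENSMUSG00000036256), a secreted relative that binds IGFs weakly and is also made by vessel cells, declined over both intervals in its means. Its levels were 1208, 1224 and 882 CPM at day 0, 484, 850 and 504 CPM at day 4, and 360.0, 330 and 465 CPM at day 8. Replicate 2 of day 4 came close to the lowest day 0 library, and day 8 lay below day 4 in all libraries. Igfbp7 fell 1.80-fold by day 4, from 1105 ± 193 to 613 ± 206 CPM (SD, n = 3; a fitted log2 change of -0.85 ± 0.24 SE, adjusted p = 0.0125 by edgeR). It was 2.87-fold below day 0 at day 8 (-1.52 ± 0.25, adjusted p = 0.000371). Leaving out day 4 replicate 3 ended the call at day 4 (-0.72, adjusted p = 0.0526), and its adjusted p ran from 1.37e-05 to 0.0526 over the alternatives. From day 4 to day 8 it changed by -0.67 ± 0.24 (adjusted p = 0.0584), and it was called lower without day 4 replicate 1 (-0.81, adjusted p = 0.0368) or day 8 replicate 3 (-0.83, adjusted p = 0.0454), with a range of 0.0158 to 0.180. Without day 4 replicate 2, which stood apart, the change was -0.36 (adjusted p = 0.141). Igfbp7 was called lower in 5 of 18 alternatives for this step and not in 13. Those 5 include DESeq2 (adjusted p = 0.0260) and no filter on low counts (adjusted p = 0.0229 by edgeR). The summed smooth muscle and pericyte markers were lower in all later libraries than at day 0, and the summed endothelial markers were so except in day 4 replicate 2 (21.8 CPM), the day 4 library in which Igfbp7 was also highest. Most of that sum was Tek (13.8 CPM) and Kdr (4.51 CPM). Pecam1 (0.936 CPM) and Cdh5 (0.330 CPM) lay between the other day 4 libraries there. The part of these cells in the Igfbp7 values was not tested. The gene Polr2b, annotated as overlapping Igfbp7, had 3239 to 4442 counts per library against 12333 to 39655 for Igfbp7, and no source used here gives how shared reads were split.

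Igfbp2 (ENSMUSG00000039323), a carrier that can also bind integrins, had few footprints, with 16 to 121 counts per library. It had 2.16, 1.08 and 2.04 CPM at day 0, 0.843, 3.33 and 0.451 CPM at day 4, and 1.03, 1.20 and 0.700 CPM at day 8. Day 4 replicate 2 was the highest of all 9 libraries while the rest of day 4 held the lowest value of the series, so the groups overlapped. No comparison was called, with log2 fold changes of -0.19 ± 0.62 SE for day 4 against day 0 (adjusted p = 0.806 by edgeR), -0.85 ± 0.63 for day 8 against day 0 (adjusted p = 0.257) and -0.66 ± 0.63 for day 8 against day 4 (adjusted p = 0.457). Without day 4 replicate 2 it was called lower at day 4 (-1.44, adjusted p = 0.0137). Its adjusted p at day 4 ran from 0.00814 to 0.996 over the alternatives.

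**Figure D3:**
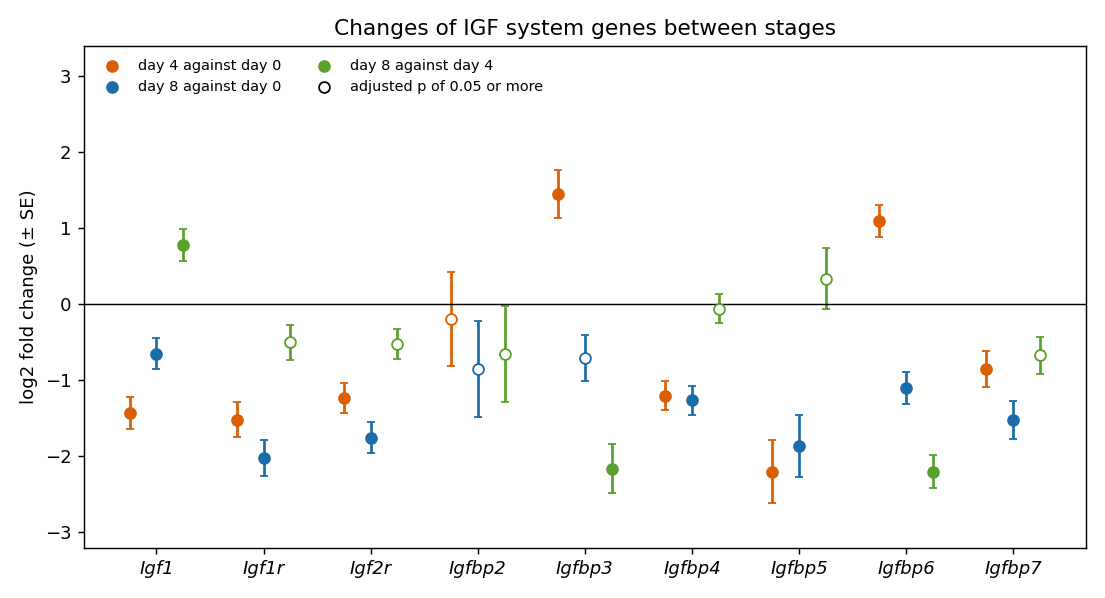
Fitted log2 fold change ± SE (y axis) of the 9 genes (x axis) in the 3 comparisons, with filled points for an adjusted p under 0.05 in edgeR and open points otherwise. Igfbp3 and Igfbp6 lie above 0 at day 4 and far below it from day 4 to day 8, and all 9 genes lie below 0 at day 8 against day 0.

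Proteases that free IGFs from their carriers, and inhibitors of those or related proteases, had more members that fell than rose. Of 22 tested genes in a list of 25, 11 fell and 4 rose by day 4, and 15 fell and 5 rose by day 8. Of all tested genes 28.4% fell and 29.8% rose by day 4, and 33.5% fell and 34.2% rose by day 8. Both directions joined, all but 7 of the 22 genes were called at day 4 and all but 2 at day 8. Called on these days were 58.2% and 67.7% of all tested genes. The list had median log2 fold changes of -1.08 and -1.67. Pappa, which encodes PAPP-A, stood at 539.7, 637 and 724 CPM at day 0, at 31.0, 62.3 and 22.7 CPM at day 4, and at 19.8, 13.2 and 38.2 CPM at day 8. Every later library was far below day 0. The fall was 16.4-fold by day 4 (log2 fold change -4.03 ± 0.47 SE, adjusted p = 6.17e-05 by edgeR) and 26.7-fold by day 8 (-4.74 ± 0.48, adjusted p = 2.10e-05). Its relative Pappa2 was below 1 CPM in the mean of every group and was not called in any comparison.

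Stanniocalcins, secreted proteins that block PAPP-A, rose as Pappa fell. Stc1 had 4.20, 5.57 and 4.06 CPM at day 0, 22.4, 20.0 and 30.3 CPM at day 4, and 42.0, 34.8 and 62.6 CPM at day 8, with no overlap between days. It rose 5.26-fold by day 4 (log2 fold change 2.39 ± 0.25 SE, adjusted p = 3.26e-05 by edgeR) and 1.92-fold more from day 4 to day 8 (0.94 ± 0.23, adjusted p = 0.0141). Stc2 rose 2.78-fold by day 4 (1.48 ± 0.34, adjusted p = 0.00425) and was 4.52-fold above day 0 at day 8 (2.18 ± 0.35, adjusted p = 0.000340). In day 4 replicate 2 Stc2 stood at 11.3 CPM, against 32.0 and 31.5 CPM in the other libraries of that day and 8.11 to 10.6 CPM at day 0.

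Among the HTRA serine proteases, those of Htra1, Htra3 and Htra4 carry an IGFBP-like domain of their own. Htra1 fell from 762 ± 73.9 CPM to 324 ± 34.1 at day 4 and 269 ± 76.0 CPM at day 8 (SD, n = 3; fitted log2 changes of -1.23 and -1.50, adjusted p = 0.000387 and 8.37e-05 by edgeR). Htra3 rose from 34.4 ± 5.94 to 151 ± 46.1 and 128 ± 22.6 CPM (SD, n = 3; 2.13 and 1.90, adjusted p = 5.57e-05 and 8.03e-05 by edgeR). Adam12, a metalloprotease that cuts IGFBP3 and IGFBP5, stood at 222 ± 16.8 and 250 ± 39.1 CPM at days 0 and 4 and fell to 107 ± 10.9 CPM at day 8 (SD, n = 3; -1.22 ± 0.14 SE against day 4, adjusted p = 0.000455 by edgeR). Metalloprotease genes Adamts1 and Mmp14 fell 2.02-fold and 4.69-fold by day 4 (adjusted p = 0.0116 and 0.00121), and the inhibitor gene Timp3 fell 17.4-fold (adjusted p = 5.92e-05).

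The growth hormone axis, which drives Igf1 in many tissues through JAK2 and STAT5, had members moving both ways. Of 15 tested genes 7 rose and 6 fell by day 4, where 29.8% of all tested genes were called higher and 28.4% lower, and 7 rose and 5 fell by day 8, where these shares were 34.2% and 33.5%, with median log2 fold changes of 0.27 and -0.12. The growth hormone receptor gene Ghr, named here for its role after its values were seen, rose 2.55-fold, from 73.5 ± 7.81 to 188 ± 17.8 CPM at day 4 (SD, n = 3; a fitted log2 change of 1.35 ± 0.17 SE, adjusted p = 0.000113 by edgeR). At day 8 it was 2.06-fold above day 0 (1.04 ± 0.17, adjusted p = 0.000405). Stat5a rose 3.15-fold and 3.13-fold on these days (adjusted p = 1.71e-05 and 1.42e-05), and the prolactin receptor gene Prlr rose 33.7-fold by day 4, from 2.01 ± 0.341 to 68.0 ± 15.7 CPM (SD, n = 3; 5.08 ± 0.28, adjusted p = 6.26e-07 by edgeR). The kinase gene Jak2 fell 2.18-fold by day 4 (adjusted p = 0.000411) and was 2.16-fold below day 0 at day 8 (adjusted p = 0.000315), and it is named here after its values were seen. Feedback inhibitors of this pathway differed among themselves. Socs3 and Socs1 fell: Socs3 went from 46.8 ± 3.84 to 7.31 ± 2.54 and 7.0 ± 2.4 CPM, and Socs1 from 3.59 ± 0.649 to 0.685 ± 0.178 and 0.768 ± 0.202 CPM (SD, n = 3; fitted log2 changes at day 4 of -2.68 and -2.38, adjusted p = 3.23e-05 and 0.000101 by edgeR). Socs2, also named after its values were seen, was 2.23-fold below day 0 at day 8 (adjusted p = 0.00157 by edgeR). Cish, which STAT5 is known to induce, dipped and then rose. It stood at 12.6, 12.7 and 13.3 CPM at day 0, at 6.51, 10.98 and 8.29 CPM at day 4, and at 19.6, 17.2 and 16.6 CPM at day 8, with no overlap between days. Its rise from day 4 to day 8 was 2.07-fold (adjusted p = 0.00254 by edgeR). The fall by day 4 (-0.58, adjusted p = 0.0167) was not called on leaving out day 0 replicate 3 (adjusted p = 0.0508) or day 4 replicate 3 (adjusted p = 0.0542). The excess at day 8 over day 0 (0.47, adjusted p = 0.0354) was not called in 7 of 18 alternatives, among them leaving out any 1 of the day 0 libraries, day 8 replicate 1 or day 8 replicate 2, and its adjusted p ran from 0.00317 to 0.108.

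**Figure D4:**
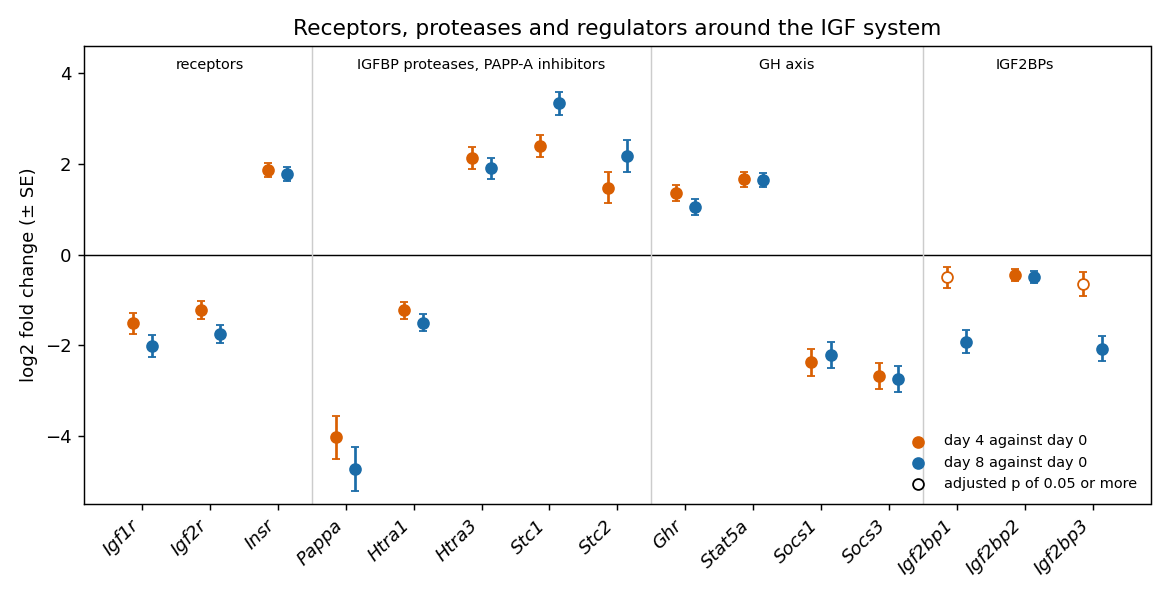
Fitted log2 fold change ± SE (y axis) at day 4 and day 8 against day 0 for receptors, binding protein proteases with the PAPP-A inhibitors Stc1 and Stc2, growth hormone axis genes and IGF2 mRNA-binding proteins (x axis), with open points for an adjusted p of 0.05 or more in edgeR. Igf1r and Igf2r lie below 0 and Insr above it, and Pappa has the lowest values shown while Stc1 and Stc2 lie above 0.

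Downstream of both receptors, 15 of 51 tested signalling genes rose and 15 fell by day 4, and 18 rose and 17 fell by day 8, with medians of 0.0091 and 0.032 on the log2 scale. These shares, like the even split, were at or near those of all tested genes. The insulin receptor substrate gene Irs2 rose 5.22-fold by day 4 (adjusted p = 2.79e-06 by edgeR) and Irs3, a substrate made in rodent fat, was 14.3-fold higher at day 8 (adjusted p = 2.36e-06). The adaptor gene Sh2b2 rose 16.6-fold by day 4 (adjusted p = 5.14e-06), the kinase gene Mtor 3.88-fold (adjusted p = 3.28e-06) and Arrb1, an arrestin that also binds IGF1R, 7.5-fold (adjusted p = 6.64e-07). Pik3r2, a regulatory subunit of PI 3-kinase, fell 2.40-fold by day 8 (adjusted p = 4.56e-06). Its relative Pik3r1 peaked at day 4, with a 2.63-fold rise (adjusted p = 4.41e-05) and a 1.84-fold fall by day 8 (adjusted p = 0.00285). Grb14, an inhibitor of the insulin receptor, dipped like Igf1, from 37.8 ± 6.91 to 9.72 ± 1.91 and back to 24.9 ± 4.53 CPM (SD, n = 3; log2 steps of -1.96 and 1.36, adjusted p = 2.67e-05 and 0.00131 by edgeR).

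The 3 genes for IGF2 mRNA-binding proteins, which bind many transcripts besides Igf2, were all lower at day 8. Igf2bp3 fell 4.21-fold, from 44.0 ± 5.04 to 10.4 ± 1.57 CPM, Igf2bp1 3.79-fold, from 2.31 ± 0.204 to 0.608 ± 0.139 CPM, and Igf2bp2 1.41-fold, from 47.5 ± 2.65 to 33.6 ± 4.04 CPM (SD, n = 3; adjusted p = 0.000114, 0.000100 and 0.00838 by edgeR). At day 4 only Igf2bp2 was called (-0.45 ± 0.14 SE, adjusted p = 0.0176), and not without day 0 replicate 1 (-0.44, adjusted p = 0.0504), day 0 replicate 3 (-0.40, adjusted p = 0.0623), day 4 replicate 1 (-0.37, adjusted p = 0.0664) or day 4 replicate 3 (-0.37, adjusted p = 0.0728). In day 4 replicate 2 Igf2bp3 stood at 43.0 CPM, within the day 0 range of 39.7 to 49.5 CPM, against 19.1 and 22.3 CPM in the other libraries of that day. Igf2bp3 changed by -0.64 at day 4 (adjusted p = 0.0615 by edgeR), and no value without that library is given.

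Other proteins with an IGFBP domain fell in 8 of 11 tested genes and rose in 2 on each day, against 28.4% and 33.5% of all tested genes called lower. Of the 8 genes, Esm1 was called lower at day 4 and not at day 8, and Htra4 at day 8 and not at day 4; both are named after their values were seen. The list's medians were -1.65 and -1.50 on the log2 scale. Htra1, Htra3 and Htra4 belong to this list as well as to that of proteases. Ccn4 fell 16.2-fold by day 4 and Ccn2 22.7-fold (adjusted p = 1.34e-05 and 5.99e-05 by edgeR), both matrix-associated CCN proteins, and Crim1 fell 3.70-fold (adjusted p = 3.41e-05). Kazald1, by contrast, peaked at day 4 as Igfbp3 and Igfbp6 did. It stood at 7.04 ± 1.35, 47.6 ± 6.21 and 17.8 ± 0.843 CPM (SD, n = 3), a 6.76-fold rise and a 2.67-fold fall (adjusted p = 8.49e-07 and 0.000350 by edgeR).

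Genes with the most similar profiles to each member were taken from 8249 named genes with a mean of at least 10 CPM, by the root mean square difference of centred log2 CPM over the 9 libraries. Closest to Igf1r were the adaptor gene Shc2 (0.083) and the transcription factor gene Bach1 (0.10), and closest to Igf2r were the transcription factor gene Tead3 (0.089) and Snx30 (0.096). Igfbp7 was nearest to the proteoglycan gene Sdc2 (0.11) and Prcp (0.11). The semaphorin receptor gene Plxnd1 and the lipid receptor gene Olr1 were nearest to Igfbp6 (0.19 and 0.21), and Plxnd1, with 49.5, 86.3 and 21.0 CPM at days 0, 4 and 8, was also among the 3 nearest to Igfbp3 (0.35). The transporter gene Abca8a was nearest to Igfbp3 (0.33), and the NAD-consuming enzyme gene Cd38 came next (0.34). Igf1 had looser neighbours, Dzip3 (0.20), Vopp1 (0.22) and Tram2 (0.22), and those of Igfbp4 were Spred1 (0.20) and Agap1 (0.20). Igfbp5 was nearest to the chemokine gene Cxcl12 (0.36), which went from 576 to 112 and 181 CPM, and Igfbp2 to Kctd12 (0.45). These distances rest on libraries shared by all genes and are given as a description.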

How the data were processed

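Ribosome footprints were counted in 9 libraries, 3 per group, with groups taken from the titles in the labels. The deposited values are counts per Ensembl gene, raw and not normalised, per the file headers. Adapter trimming with cutadapt, alignment to GRCm39 with HISAT2 and counting with featureCounts are named in the submitters' processing notes. Their versions, the strand setting and the treatment of multi-mapping reads are not stated in any label. RNA levels were not analysed here, and a footprint level therefore combines mRNA amount and ribosomes per mRNA.

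The filter filterByExpr at a minimum count of 10 kept 14714 genes and at least 99.95% of each library's counts. After TMM scaling, 1 fit of all 9 libraries by group gave quasi-likelihood tests (edgeR 4.0.16, R 4.3.3) with Benjamini-Hochberg adjustment over all tested genes. SEs derive from the F statistic. The labels do not say whether replicates are separate animals or cultures, and the p-values reflect only the spread among these libraries, which may be technical. No replicate pair agreed within sampling noise (chi-square per degree of freedom 15.2 to 247). Same-numbered libraries were not treated as pairs in the main fit. Correlations of their deviations ran from -0.20 to 0.19. Differently numbered libraries were not set beside them, so these values cannot decide whether the libraries were paired. In simulated counts, 51% to 58% of 2-fold and 83% to 88% of 4-fold changes were recovered. There, 100 genes were changed at each fold among 14432 to 14448 tested. A far larger share of genes was called in the data, and the adjusted p depends on that share. These rates therefore do not give the recovery in the data.

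The 9 members and all lists were chosen with earlier results of these data known. Named genes were all members, the lists of other ligands and receptors, proteases and IGF2 mRNA-binding proteins, up to 4 genes by smallest adjusted p per comparison from each other list, and the 3 most similar genes per member (log2 CPM, prior count 2). Not all of these are reported. Alternatives changed scaling, filter, test (DESeq2 1.42.0, limma-voom in limma 3.58.1), libraries and a replicate block. Levels per coding length, shares of each binding protein and protein features were planned but not computed, since coding lengths and protein sequences were not used here. Promoter windows and gene overlaps come from RefSeq tables on GRCm38.p6, matched by symbol, while the counts were made on GRCm39.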

Additional observations from a re-analysis of the deposited data

How the results depend on the processing

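Over 27 results for the 9 genes and 18 alternatives each, 449 of 486 fits kept the direction and the side of the threshold, 6 lost a call, 22 gained one and 9 turned direction. For 81 results of the other named genes, 1418 of 1458 fits kept both and 40 lost a call. These 81 were only results called in the main fit, so no call could be gained. The 2 tallies are therefore not comparable. The count of the 9 genes called between day 4 and day 8 was 3 and became 5 with no filter on low counts, with DESeq2 and without both day 4 replicate 2 and day 8 replicate 3. It ran from 3 to 5 when 1 library was left out. Genes of the other lists called in that comparison numbered 31. When 1 library was left out they ran from 16 (without day 8 replicate 1) to 32, with 19 without day 8 replicate 2. They numbered 40 with DESeq2 and 46 without both libraries that stood apart. All tested genes called in it numbered 4676, with 2706 without day 8 replicate 1, 2760 without day 8 replicate 2 and 5481 without both libraries that stood apart. Changes of direction were seen only in values that were not called. Igfbp2 at day 4 against day 0 ran from -1.44 to 0.25 when 1 library was left out, and at day 8 against day 4 from -1.09 to 0.60, with 0.79 without both libraries that stood apart. Igfbp4 at day 8 against day 4 ran from -0.26 to 0.071, was 0.092 with library totals and -0.27 without both libraries, and Igfbp5 ran from -0.39 to 0.63 and was -0.51 without both libraries. The cause of these changes was not tested. Scaling by library totals moved the median of all genes to -0.17 at day 4 and to 0.12 between day 4 and day 8, and upper quartile scaling to -0.14 at day 4 and -0.11 at day 8. With the replicate number as a block, 8, 8 and 3 of the 9 genes were called, with Igfbp3 at day 8 against day 0 at -0.78 (adjusted p = 0.0188 by edgeR). All genes called numbered 8290, 9722 and 4079 with this block. Of the same-numbered pairs 2 of 9 had a correlation over 0.1. With distances over group means in place of libraries, 1 of the 3 nearest genes was kept for Igfbp4, 2 for Igfbp6 and 0 for the other genes. Alternatives on coding length were not run. Depth limits Igfbp2, at 16 to 121 counts per library, and Igf2, which was too low to test.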
